A study of Rattus norvegicus with 56 samples.

Results

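The myelin genes followed here were Mbp, Mog, Mobp, Cnp, Mag, Cldn11, Ugt8 and Myrf, which are 8 of the 13888 genes with a symbol that were tested on rat expression arrays (16581 genes had a symbol in all). They were chosen by name, and a probe was assigned to a gene through its RefSeq accession, which gave 15 probes for the 8 genes. Each gene was read from its brightest probe, and these 8 probes were well above background on all 55 arrays used. Levels are given as scaled log2 signals that average 0 over the probes of each array, so a level describes 1 probe and is not compared between genes.

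The study asked how repetitive transcranial magnetic stimulation changes transcription in cultured neurons. Every culture was made from hippocampi of E18 Sprague-Dawley rats and grown in Neurobasal medium with B27, a formulation meant for neurons. Dishes received 1 Hz stimulation (evenly spaced single pulses), intermittent theta burst stimulation (iTBS, short bursts of pulses in trains) or sham treatment with the coil kept at a distance, and RNA was taken 0, 2, 8, 24 or 48 h later. Untreated control cultures were taken at 0 h only. The 16 groups held 2 to 4 arrays each. The untreated control had 4, sham 4 or 3, iTBS 4 or 3, and 1 Hz 4 or 3 except for 2 at 2 h. The labels do not say whether arrays of 1 group came from separate cultures, so p-values measure only the spread between these samples. The arrays measured bulk RNA of a culture. All 12 neuron markers looked at were well above background on 55 of 55 arrays, as were all 10 astrocyte markers.

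The sample descriptions carry 2 numberings, a plain one and one with the prefix D. The plain numbering was cut here into 3 runs, so that each cut falls where the times start over. Within each run the times follow in order, and at each time the arms present follow as sham, 1 Hz and iTBS. These runs are called series A (11 arrays), B (12) and C (17) here, and the prefixed numbering series D (15). Sham, 1 Hz and iTBS arrays were all used at 1 time in A, 2 in B, 5 in C and 5 in D. The labels do not say what the series stand for. Series A lay on 2 slides, B on 2 and C on 3, with no slide shared among them, while each of the 7 slides also carried 2 or 3 arrays of series D. The share of spots well above background was 68.4% to 75% in series A, 66.1% to 75.8% in B, 70.4% to 74.8% in C and 70.7% to 81.8% in D. The 75th percentile of the processed signal ran from 1896 to 18416 intensity units in A, 1999 to 8109 in B, 3081 to 7364 in C and 3236 to 9939 in D. Precision was limited by the number of arrays.

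Myelin is the stacked membrane that oligodendrocytes wrap around axons in the central nervous system. Oligodendrocyte precursors, which are marked by Pdgfra and Cspg4, divide and then differentiate under transcription factors such as Olig2, Sox10 and Myrf, and only the differentiated cells make large amounts of the proteins and galactolipids of the sheath. Myelin transcripts therefore serve as a readout of oligodendrocytes in a culture, including those carried along in preparations meant for neurons.

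The largest differences in myelin genes lay between the 4 series and not between sham and stimulated cultures. Mbp encodes a basic protein that holds the inner faces of the myelin membrane together. A second Mbp probe did not follow the brightest (below), so Mbp is described here by its brightest probe alone. Its level ran from 7.31 to 9.91 (median 9.29) in series C, from 5.39 to 8.01 (median 6.36) in B, from 1.83 to 6.49 (median 4.62) in A and from 1.91 to 2.98 (median 2.56) in D. Each array of series C thus lay above each array of A and of D, while its lowest arrays reached into the range of B. As processed signal, Mbp spanned 18963 to 86887 intensity units in series C and 416 to 1503 in series D. With the 16 groups in the model, Mbp was higher in C than in D by 6.43 ± 0.30 on the log2 scale (SE), an 86.2-fold difference (limma adjusted p 1.59e-20).

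**Figure D1:**
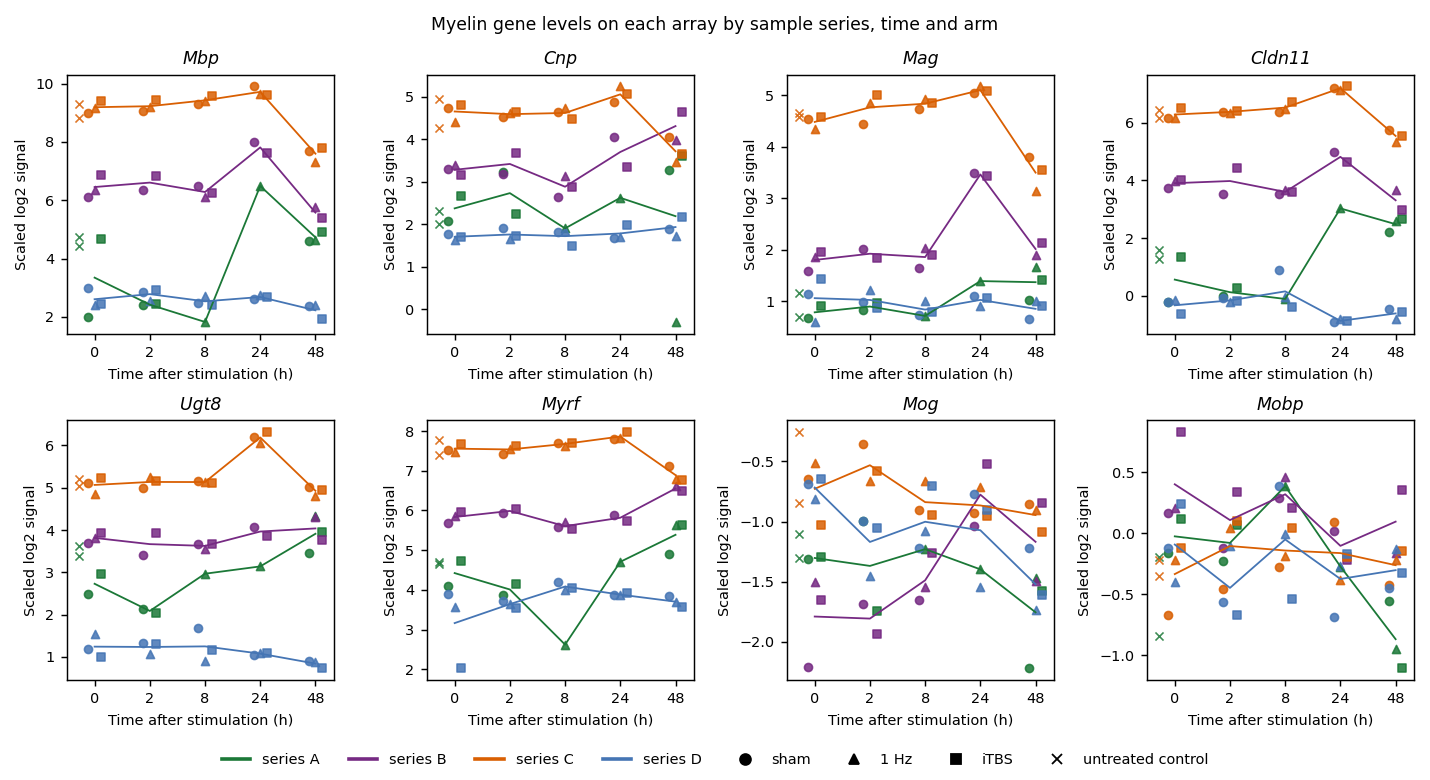
Scaled log2 signal (vertical axis) of the 8 myelin genes on each array against the time after stimulation in h (horizontal axis, evenly spaced categories). Colours give the series, symbols the arm, crosses left of 0 h the untreated control, and lines the mean of the sham and stimulated arrays of a series at each time. Mbp was at 7.31 or more in series C and at 2.98 or less in series D in each arm. Its level was lower at 48 h than at 24 h in each series, with a single array at 24 h in A.

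Cldn11, the claudin of the tight junctions between myelin wraps, differed most. Its level was 5.34 to 7.27 (median 6.39) in series C, 2.96 to 5.0 (median 3.71) in B, −0.24 to 3.03 (median 1.34) in A and −0.92 to 0.88 (median −0.41) in D. The ranges of C and B did not touch each other or that of D, and those of A and D overlapped. The difference between C and D was 6.76 ± 0.27 (SE, log2; limma adjusted p 1.52e-22), or 108.5-fold. Of the 35694 probes tested, 3 rose by as much as Cldn11 between D and C, itself included, and 4 by as much as Mbp.

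Ugt8 makes galactosylceramide, the main glycolipid of myelin. It was at 4.81 to 6.32 (median 5.14) in series C, 3.40 to 4.31 (median 3.79) in B, 2.03 to 4.32 (median 3.14) in A and 0.74 to 1.68 (median 1.09) in D, so that D stood apart from the other three. C exceeded D by 4.13 ± 0.16 (SE, log2; limma adjusted p 1.52e-22), or 17.5-fold. Myrf encodes the membrane-bound transcription factor that turns on myelin genes. It reached 6.76 to 7.97 (median 7.63) in C, 5.54 to 6.61 (median 5.88) in B, 2.62 to 5.64 (median 4.71) in A and 2.04 to 4.21 (median 3.86) in D, with no overlap between C and any other series. Its difference between C and D was 3.80 ± 0.20 (SE, log2; limma adjusted p 5.75e-19), or 14-fold.

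Mag is an adhesion protein of the myelin layer that faces the axon. Its level was 3.14 to 5.17 (median 4.65) in series C, 1.59 to 3.48 (median 1.93) in B, 0.67 to 1.67 (median 0.97) in A and 0.60 to 1.44 (median 0.99) in D. A and D covered nearly the same range, and C was 3.59 ± 0.16 above D (SE, log2; limma adjusted p 2.12e-21), or 12.1-fold. Cnp, a phosphodiesterase of the cytoplasm-filled parts of the sheath, was at 3.46 to 5.25 (median 4.64) in C, 2.65 to 4.64 (median 3.33) in B, −0.30 to 3.60 (median 2.30) in A and 1.48 to 2.17 (median 1.73) in D. It differed between C and D by 2.76 ± 0.21 (SE, log2; limma adjusted p 5.46e-14), or 6.79-fold, and the ranges of C and D did not overlap.

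The remaining genes encode proteins that appear late in myelin formation. Mog, a glycoprotein of the outermost myelin surface, was at −1.08 to −0.26 (median −0.84) in series C, −2.21 to −0.52 (median −1.52) in B, −2.22 to −0.99 (median −1.31) in A and −1.74 to −0.65 (median −1.06) in D. All 4 ranges overlapped, and C against D gave 0.32 ± 0.13 (SE, log2; limma adjusted p 0.0341), a call that was lost without any 1 of 11 arrays and with scaling by the 75th percentile. Mobp, a second basic protein of compact myelin, was at −0.67 to 0.10 in C, −0.22 to 0.83 in B, −1.10 to 0.39 in A and −0.69 to 0.39 in D. C against D gave 0.06 ± 0.11 (SE, log2; limma adjusted p 0.656), so Mobp did not pass where 6 of the other genes differed by 6.79-fold or more. Both probes were dim: over C and D the processed signal was 37 to 93 units for Mog and 58 to 176 for Mobp. These results describe 1 probe each, and other probes of the 2 genes differed from them (below).

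Counted over the comparison of C with D, 7 of the 8 genes passed as higher, where 23.7% of all tested probes did, and 6 were also at least 4-fold higher, where 0.740% of probes were. The groups C and D did not overlap in 6 genes, against 4.83% of probes. Series means ran in the order C, B, A, D for the same 6 genes, Mbp, Cnp, Mag, Cldn11, Ugt8 and Myrf, against 5.17% of probes. The median difference between C and D was 3.70 for the 8 genes and −0.04 for all probes tested. In bulk RNA of this kind, fewer cells of a type and less RNA per cell cannot be told apart.

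**Figure D2:**
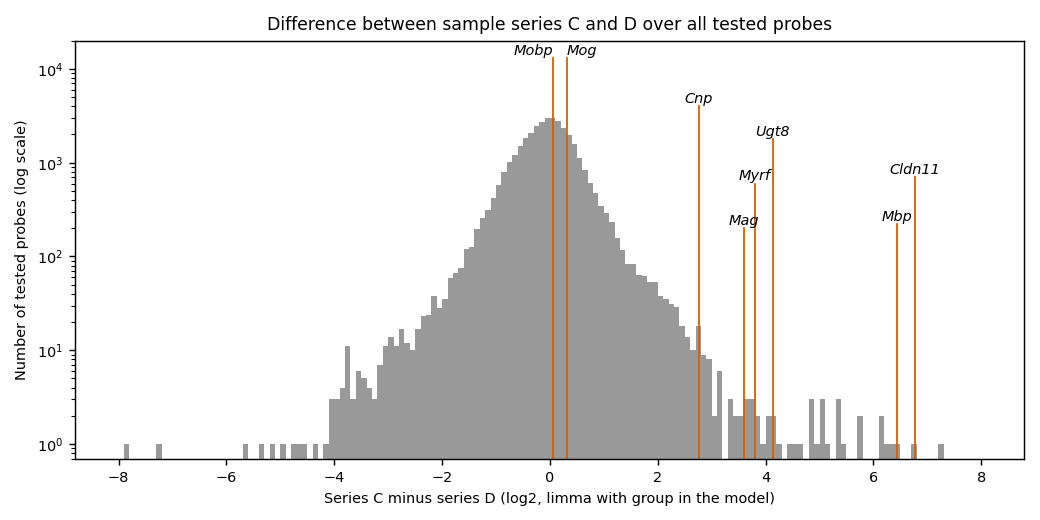
Number of tested probes (vertical axis, log scale) by their difference between series C and series D (horizontal axis, log2, limma with the groups in the model). Grey bars are all 35694 probes and orange lines mark the 8 myelin genes at heights chosen for legibility. Cldn11 at 6.76 and Mbp at 6.43 lay at the right edge, and Mog at 0.32 and Mobp at 0.06 within the bulk.

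The steps between neighbouring series were tested as well. From B to C, 7 of the 8 genes were higher in C, where 17.9% of probes were (5283 probes higher and 6399 lower in B, or 7832 and 5230 with scaling by the 75th percentile), and B minus C was −2.40 ± 0.32 for Mbp and −2.43 ± 0.29 for Cldn11 (SE, log2; limma). Mobp went the other way, 0.38 ± 0.12 higher in B (limma adjusted p 0.0107), where 14.8% of probes were higher. It became 0.08 for the mean of its probes (limma adjusted p 0.595). With the slide as a further term, 5 of the 8 passed. From A to B, 7 of 8 were higher in B, where 13.7% of probes were (5959 probes higher and 4885 lower in A, or 3586 and 6697 with scaling by the 75th percentile). That scaling moved the median of all probes, A minus B, from 0.05 to −0.10. A minus B was −2.59 ± 0.37 for Mbp and −2.52 ± 0.33 for Cldn11 (SE, log2; limma). With the slide in the model 0 of 8 passed. A and B share no slide, so that fit joins them only through the arrays of D, and the cause of the lost calls was not tested. The Mbp difference between A and B was −2.62 ± 0.83 in that fit (limma adjusted p 0.162), against −2.59 without the slide. The share of all probes called is not given here for the fits with the slide. Their counts thus do not show whether lost calls are particular to these genes.

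Between A and D, 4 of the 8 genes were higher in A, where 20% of probes were: Ugt8 by 2.05 ± 0.19, Cldn11 by 1.81 ± 0.31, Mbp by 1.44 ± 0.35 and Myrf by 0.84 ± 0.23 (SE, log2; limma). Cnp at 0.53 ± 0.25 (limma adjusted p 0.0820) and Mag at 0.19 ± 0.18 (limma adjusted p 0.433) did not pass. For Mag this depended on the probe: with the mean of its probes it was higher in A by 0.77 ± 0.25 (limma adjusted p 0.0103). In that setting Mobp was lower in A, with −0.38 ± 0.12 (limma adjusted p 0.0080). Within slides, where A and D can be set side by side, Ugt8 still differed by 1.5 ± 0.29 (limma adjusted p 2.49e-04), while Mbp at 0.85 ± 0.58 did not pass (limma adjusted p 0.308). The difference between C and D was as large within slides, with 6.93 ± 0.43 for Mbp and 7.46 ± 0.36 for Cldn11 (SE, log2; limma). In A against C, 7 of the 8 genes were lower in A, where 20.9% of probes were, and Mobp gave −0.11 (limma adjusted p 0.498). In B against D, 7 were higher in B, where 24.1% of probes were, and Mog was lower in B, with −0.40 (limma adjusted p 0.0157), where 28.9% were. Mog did not pass with another scaling (−0.22 with the 75th percentile), with normexp (−0.10), for the mean of its probes (−0.03) or with the slide in the model (−0.22), and Mobp, higher in B by 0.44, did not pass with the slide or for the mean of its probes. Ranges did not overlap in 5 genes between C and A (1.59% of probes), in 3 between C and B (1.11%), in 6 between B and D (3.12%), in 1 between A and D (Ugt8, 1.52%) and in 0 between B and A (0.975%). Over all 4 series, 8 of 8 genes passed the moderated F test, where 75.4% of probes did.

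Other probes of the same genes were looked at singly. Both further probes of Cldn11 followed the first, with Pearson r of 0.999 and 0.972 over the 55 arrays, and the second probe of Mag did so with r of 0.940, although 1 of the Cldn11 probes was well above background on 32 arrays and the Mag probe on 34 (arrays share series and scaling, and no test is attached). The second probe of Mbp, A_64_P017160, did not: its series means were 0.55 in A, −0.23 in B, 0.91 in C and 0.91 in D, and its r with the first probe was −0.04, although its signal exceeded background on all 55. The files here do not pair these 2 probes with different Mbp transcripts. The second probe of Mog had r of 0.554 with the first, and its mean was 0.99 higher in C than in D. It was well above background on 39 arrays. The other probes of Mobp had r of 0.092 and 0.123, and the latter was well above background on 1 array only. Between the 6 genes that followed the series order, r ran from 0.832 to 0.988 across arrays, and from 0.030 to 0.868 once the mean of each series had been removed. Pairs with Mog gave −0.201 to 0.539 and pairs with Mobp −0.201 to 0.148.

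Because these genes moved together, the RefSeq promoters of the rat assembly GRCr8 were searched for 2 short motifs, each on both strands over the 250 bases before the annotated start. The first was the core bound by MYRF, written as CTGGCAC or CTGGTAC, and the second the core bound by SOX factors, written as ACAAAG or ACAATG. Matches of the 2 motifs did not overlap each other in these windows. A window was present for 6 of the 8 genes, with 2 for Mbp. The MYRF-type core occurred in Cnp, Mag and Cldn11 and in 5.48% of 33469 promoters of that length, and the SOX-type core in 1 window each of Mbp, Cnp, Mag and Mobp and in 25.3% of promoters. Ugt8 held neither in its window. The promoters with the MYRF-type core are shown because they belong to 3 of the 5 genes that were ordered over the series as Myrf was. Capitals mark that core, which began 124 (Cnp), 94 (Mag) and 120 (Cldn11) bases before the start, and a match of letters is not evidence of binding. The windows are chr10:86011254-86011503 (plus strand) for Cnp, chr1:95291045-95291294 (minus strand) for Mag and chr2:114149540-114149789 (minus strand) for Cldn11.
Cnp: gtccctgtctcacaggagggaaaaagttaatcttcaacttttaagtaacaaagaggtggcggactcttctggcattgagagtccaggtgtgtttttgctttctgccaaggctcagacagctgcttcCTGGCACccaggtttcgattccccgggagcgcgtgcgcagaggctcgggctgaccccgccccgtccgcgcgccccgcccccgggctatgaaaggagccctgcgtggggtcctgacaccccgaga
Mag: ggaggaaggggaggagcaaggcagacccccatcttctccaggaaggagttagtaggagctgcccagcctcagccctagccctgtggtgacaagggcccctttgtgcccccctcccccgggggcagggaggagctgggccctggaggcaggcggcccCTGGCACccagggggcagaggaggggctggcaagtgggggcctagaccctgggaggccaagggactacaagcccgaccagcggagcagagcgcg
Cldn11: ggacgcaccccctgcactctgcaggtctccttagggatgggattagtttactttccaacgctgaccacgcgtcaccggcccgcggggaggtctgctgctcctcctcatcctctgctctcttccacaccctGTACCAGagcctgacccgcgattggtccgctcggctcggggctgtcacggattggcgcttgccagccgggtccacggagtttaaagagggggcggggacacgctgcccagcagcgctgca

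Other genes of the sheath were followed with a list of 32, of which 27 were tested. Between C and D, 16 were higher and 5 lower (median 0.58), where 23.7% of all probes were higher and 28.7% lower. In A against C, 2 were higher and 16 lower, where 20.9% of all probes were lower. Fa2h and Gal3st1, which act in the galactolipid pathway, were also higher in C than in D. Fa2h, which hydroxylates the fatty acid, was at 4.65, 3.18, 1.56 and −0.75 in C, B, A and D, and Gal3st1, which adds the sulphate of sulphatide, was at 3.30, 2.59, 2.15 and −0.38. In a wider list around that pathway, 4 of 9 genes were higher in C than in D and 0 lower. The others of these 4 were Cers2 at 0.70 ± 0.08 and Cerk at 0.27 ± 0.06 (SE, log2, limma). Galc and Arsa, lysosomal enzymes that break these lipids down, did not pass, with −0.32 ± 0.20 and −0.06 ± 0.08. Bcas1 and Evi2a, transcripts of oligodendrocytes, were higher in C than in D by 5.05 ± 0.19 and 5.75 ± 0.24. Nkx6-2, a homeobox factor of the lineage, did not exceed background clearly on the 15 arrays of D and was at least 46.1-fold higher in C. Members of the list that were lower in C than in D included Tf, Tppp3, Gsn and Gpr37, by 0.43 to 2.71 on the log2 scale. Genes of the sheath list, higher or lower, can be expressed in other cells too, and the part of such cells was not tested.

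Of 16 genes of the oligodendrocyte lineage, 13 were tested. Of these, 12 were higher in C than in D with 0 lower (median 2.21), where 23.7% of all probes were higher. The lineage genes fell into different patterns over the series. Sox10, a factor of the whole lineage, was at 6.43, 5.08, 4.05 and 1.76 in C, B, A and D, in the order of the myelin genes. By contrast, Cspg4 was at 6.52, 6.53 and 6.51 in C, B and A and at 3.87 in D, Olig2 at 8.06, 8.35, 7.97 and 5.73, and Pdgfra at 8.15, 8.54, 7.53 and 4.73. For A against C, Cspg4 gave 0.05 ± 0.18 (SE, log2; limma adjusted p 0.858), Olig2 −0.04 ± 0.12 (0.821), Sox6 −0.16 ± 0.13 (0.352) and Olig1 −0.10 ± 0.18 (0.705), beside −4.99 ± 0.33 for Mbp and −4.96 ± 0.30 for Cldn11 (limma adjusted p 4.15e-15 and 2.40e-16). Pdgfra was lower in A than in C by 0.56 (log2; limma adjusted p 0.0135). Over the 13 lineage genes, 8 were lower in A than in C and 0 higher (median −0.56), where 20.9% of all probes were lower. Sox10 was among the 8, and 5 did not pass, which were Cspg4, Olig2, Sox6, Olig1 and Enpp6. The genes were named after their values were seen. Mbp differed between A and C by 31.9-fold. Whether the change of a precursor gene differed from that of a myelin gene was not tested.

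**Figure D3:**
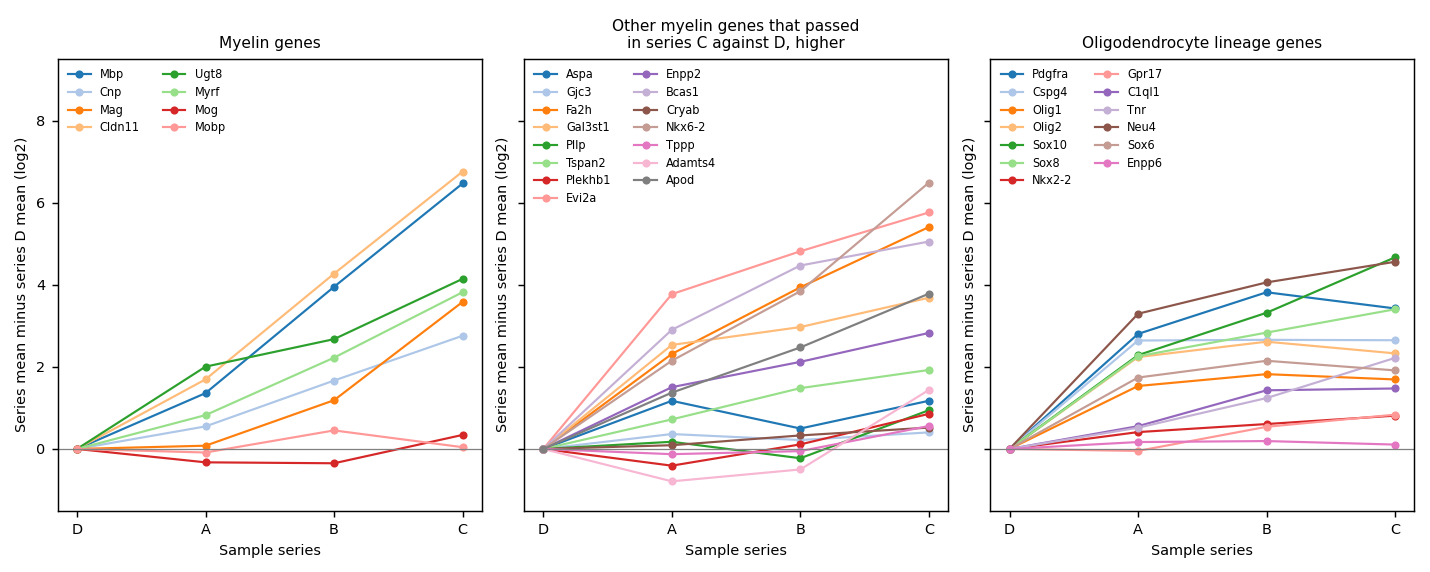
Series mean minus the mean of series D (vertical axis, log2) for each series (horizontal axis, D, A, B, C) and 1 line per gene, for the 8 myelin genes (left), 15 of the other myelin genes higher in C than in D (middle) and 13 oligodendrocyte lineage genes (right). Cldn11 and Mbp climbed over all steps, and Cspg4 stayed level from A to C.

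Markers of other cells also differed between the series, and their part in the results above was not tested. Astrocyte markers had a mean level over the list of 5.31 to 6.91 per array in series A, 6.20 to 7.32 in B, 6.27 to 6.62 in C and 5.45 to 6.69 in D, and 6 of 10 were higher and 2 lower in C than in D. Neuron markers ran from 4.90 to 5.87 in A, 4.77 to 5.30 in B, 4.73 to 5.06 in C and 5.24 to 5.71 in D, with 0 of 12 higher and 9 lower in C than in D, where 23.7% of all probes were higher and 28.7% lower. Mural and fibroblast markers were at 0.31 to 1.38 in A, 0.26 to 1.28 in B, 1.51 to 2.17 in C and 3.22 to 3.62 in D, with 1 of 8 higher and 6 lower in C. Col1a1, a fibroblast collagen, had means of 7.11 in D, 4.15 in C, 1.13 in B and 1.61 in A. Microglia markers were at −0.70 to 0.96 in A, −0.83 to −0.31 in B, −1.02 to −0.29 in C and −0.22 to 1.31 in D, and 3 of 10 were higher and 6 lower in C. Endothelial markers ran from −2.94 to −1.06 over the 4 series, with 0 of 6 higher and 2 lower in C than in D. Schwann cell markers, the glia that make peripheral myelin, ran from −3.99 to −1.83 with 0 of 4 called either way. The shares of all probes given for the neuron markers apply to the counts of C against D in each of these lists.

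Stimulation was compared with sham at each time, and iTBS with 1 Hz. With group means alone, which is the design of the study, limma called 0 of the 8 genes in each of 16 comparisons and 0 of 128 tests had an unadjusted p under 0.05. The share of all probes called was 0.0056% in 3 comparisons, 0.0028% in 3 and 0% in the others. The standard errors there reached 2.74 on the log2 scale, because the series differ so much inside each group. The groups also did not all hold the same series, so these comparisons mix arm with series. For example, at 24 h 1 Hz came from A, C and D and sham from B, C and D. At 2 h 1 Hz came from C and D only, and the untreated control from A and C only. Comparing arms inside the same series and time brought the standard errors to between 0.15 and 0.50. In that fit, which was chosen after the data were seen, 0 of 128 tests passed either (smallest limma adjusted p 0.133), 9 of 128 had an unadjusted p under 0.05, and 0% to 0.177% of probes were called (0.177% for the untreated control against sham and 0.0308% for iTBS against sham at 0 h). With the series as an additive block, the number was 0 of 128 again, with 3 at an unadjusted p under 0.05. The test for a change from sham that varied with time passed for 0 of the 8 genes with either protocol (0 called by limma, 0 at an unadjusted p under 0.05, 0% of probes). The differences of Mbp between arms within a series and time lay between −0.20 and 0.89 on the log2 scale, with 95% intervals that reached from −0.95 to 1.57. For Mag they lay between −0.16 and 0.38, with intervals from −0.57 to 0.73. The Mbp difference between series C and D, 6.43, lay outside these intervals. The spans join the outermost limits of 16 comparisons, and the smallest difference that these arrays could detect was not computed.

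The differences with the smallest p values were few. At 0 h, sham was the low arm of series A: Mbp was at 2.01 in sham, 4.69 after iTBS and 4.43 and 4.73 in the untreated controls. In series C it was at 8.99 in sham, 9.41 after iTBS, 9.17 after 1 Hz and 8.82 and 9.29 in the controls, so the arms overlapped there. Within series, iTBS exceeded sham at 0 h by 0.83 ± 0.30 and the untreated control exceeded sham by 0.89 ± 0.33 (SE, log2; limma adjusted p 0.183 and 0.466). Untreated controls were present in series A and C only, so the latter value rests on these. Both comparisons share the sham arrays, among them the sham array of series A at 2.01, and values without it are not given here. In the series B and D, Mbp after iTBS was 6.88 and 2.44 beside 6.12 and 2.98 in sham. At 48 h, Cnp was at −0.30 on the 1 Hz array of series A, against 3.27 in sham and 3.60 after iTBS, and at 3.98, 3.46 and 1.73 on the 1 Hz arrays of B, C and D. The Cnp difference between 1 Hz and sham at 48 h was −1.33 ± 0.42 (SE; limma adjusted p 0.180) with that array and −0.37 ± 0.25 (limma adjusted p 0.861) without it.

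Pairs of arrays from the same series and time show the same in the measured values. Among 17 pairs, Mbp after iTBS minus sham ran from −0.54 to 2.68 with a median of 0.10 and was above 0 in 11 pairs. Among 13 pairs, Mbp after 1 Hz minus sham ran from −0.58 to 0.25 with a median of 0.03 and was above 0 in 8. Medians for the other 7 genes lay between −0.04 and 0.28 for both protocols. The widest pair belonged to Cnp after 1 Hz at 48 h in series A (−3.57).

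**Figure D4:**
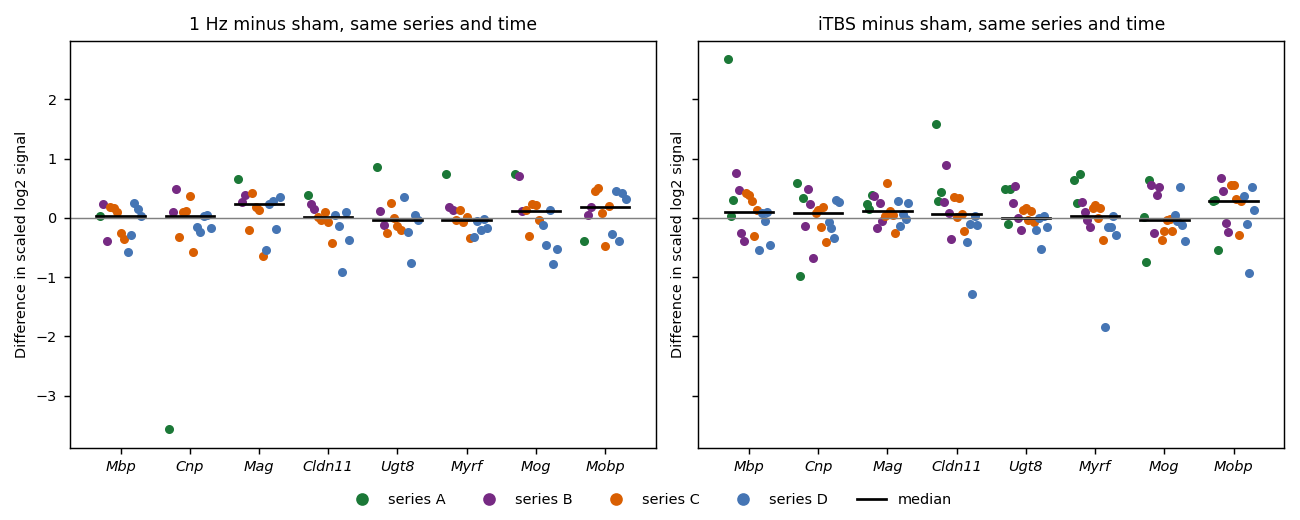
Difference in scaled log2 signal (vertical axis) between a stimulated and a sham array of the same series and time, for the 8 genes (horizontal axis), with 1 Hz on the left (13 pairs) and iTBS on the right (17 pairs). Points are pairs, coloured by series, and black bars are medians, which lie between −0.04 and 0.28.

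Times were compared with each other as well. With the series as a term and the arms averaged, Mag was higher at 24 h than at 0 h by 0.69 ± 0.19 (SE, log2; limma adjusted p 0.0136), the 1 gene of the 8 that passed, where 14% of probes did. This call was lost without either array of series B at 24 h (0.56 without sham replicate 1 and 0.57 without iTBS replicate 1). Mbp gave 0.92 ± 0.37 (limma adjusted p 0.0967). At 48 h limma called 0 of 8, with 1 at an unadjusted p under 0.05, where 27% of probes passed, and at 2 and 8 h it called 0 of 8, with 0 at an unadjusted p under 0.05, where 0% and 2.37% did. Over all times Mag alone passed the moderated F test (27% of probes), and sham arrays taken by themselves gave 0 of 8 (1 unadjusted) where 3.30% of probes passed.

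These averages hid time courses that differed between the series. A model with a mean for each series at each time, chosen after the data were seen, found different time courses for 6 of the 8 genes, where 41.9% of probes passed: Cldn11 (limma adjusted p 1.33e-07), Mag (7.84e-07), Mbp (1.31e-06), Ugt8 (5.53e-06), Myrf (8.08e-06) and Mog (0.0223). Cnp (0.286) and Mobp (0.290) did not pass. With the slide in the model, 5 of these 6 passed and Mog did not (limma adjusted p 0.746).

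In series C, the level fell between 24 and 48 h. Mbp was at 9.91, 9.65 and 9.60 after sham, 1 Hz and iTBS at 24 h and at 7.68, 7.31 and 7.80 at 48 h, so each 48 h array lay below each 24 h array and also below the 14 arrays of earlier times. Cldn11 went from 7.21, 7.14 and 7.27 to 5.76, 5.34 and 5.54, and Mag from 5.04, 5.17 and 5.08 to 3.80, 3.14 and 3.54. The fall was −2.12 ± 0.35 for Mbp, −1.66 ± 0.28 for Cldn11, −1.60 ± 0.18 for Mag, −1.26 ± 0.19 for Ugt8 and −0.97 ± 0.24 for Myrf (SE, log2; limma). Thus 5 of 8 genes were lower at 48 h, where 0.392% of probes were. Myrf lost its call without any 1 of 5 arrays and with the slide in the model. Cnp at −1.34 ± 0.46 did not pass (limma adjusted p 0.177), but passed without the 1 Hz array of series A at 48 h, with the same value of −1.34 (limma adjusted p 5.89e-04).

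In series B the fall was of like size for some of these genes. Mbp went from 8.01 (sham) and 7.61 (iTBS) at 24 h to 5.77 (1 Hz) and 5.39 (iTBS) at 48 h, a difference of −2.27 ± 0.43, and Cldn11 and Mag changed by −1.54 ± 0.35 and −1.49 ± 0.22 (SE, log2; limma). These 3 of 8 passed as lower, where 0.636% of probes did (170 probes higher and 227 lower, or 229 and 204 with scaling by the 75th percentile). The count was 1 without sham at 24 h replicate 1 and 1 without iTBS at 48 h replicate 2. In the same interval of series B, Ugt8 gave 0.05 and Myrf 0.71 on the log2 scale and neither passed. In series D, Mbp was at 2.60 to 2.75 at 24 h and 1.91 to 2.40 at 48 h, so the arrays did not overlap there either. The difference was −0.46 ± 0.35, and limma called 0 of 8 genes, with 0 at an unadjusted p under 0.05, where 1.27% of probes passed. In series A, Mbp was at 6.49 on the single 24 h array and at 4.62 to 4.92 on the 3 arrays at 48 h. The difference was −1.85 with scaling by the 75th percentile, −1.94 with quantile scaling and −1.89 with normexp (log2). Mbp passed as lower under these alternatives and not in the main fit. All of these values rest on the single 24 h array.

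Among the other genes of the sheath, 4 of 27 fell with them in series C between 24 and 48 h and 0 rose, where 0.392% of probes fell. The 4 included Adamts4 by 1.44, Apod by 1.18 and Tspan2 by 0.89 on the log2 scale. Of the lineage genes, Sox8 and Nkx2-2 were lower (2 of 13), and Cspg4 gave −0.11 and Olig2 −0.35, neither of which passed. Of the astrocyte and neuron markers 0 of 10 and 0 of 12 were called in that interval. In series B, Plekhb1 was higher by 1.24 at 48 h, and 4 of 10 astrocyte markers were higher.

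**Figure D5:**
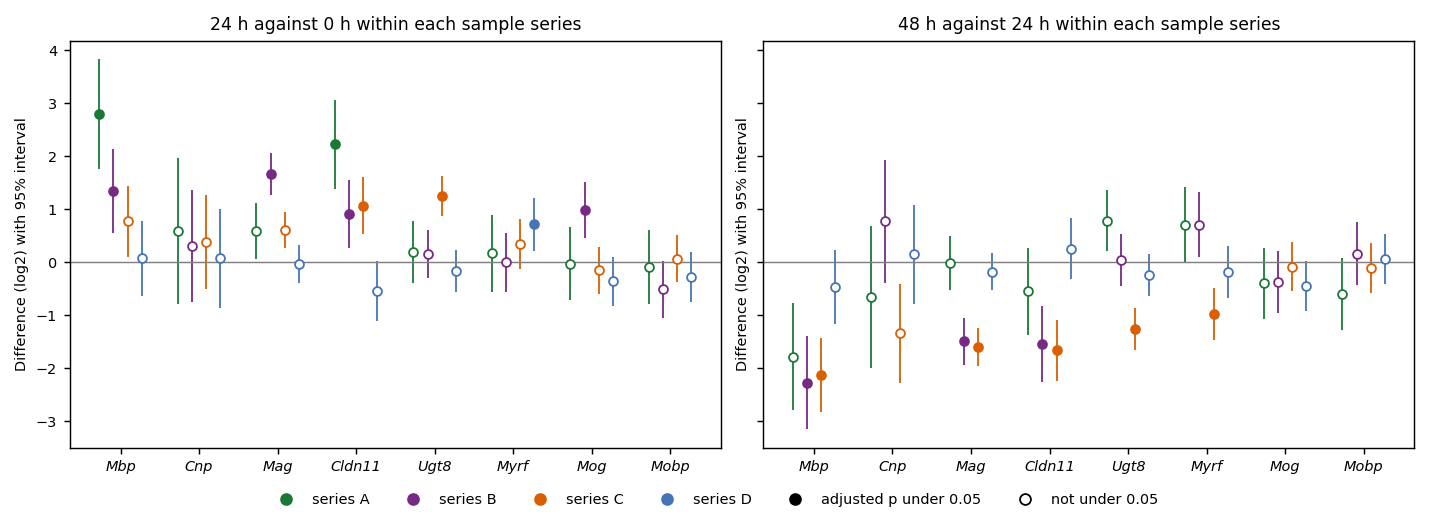
Difference on the log2 scale with its 95% interval (vertical axis) for the 8 genes (horizontal axis) in each series (colours), for 24 h against 0 h (left) and 48 h against 24 h (right). Filled points have a limma adjusted p under 0.05. The Mbp points of series B and C lie at −2.27 and −2.12 on the right.

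Before that fall, 24 h stood above 0 h in several series. In series B, Mbp was at 6.12, 6.36 and 6.88 at 0 h and 7.61 and 8.01 at 24 h, and Mbp, Mag, Cldn11 and Mog passed as higher (4 of 8, where 14% of probes were). Mag gave the largest of these differences, 1.66 ± 0.19 (SE, log2; limma), and it was the 1 gene that passed with the slide in the model. The count was 2 without sham at 24 h replicate 1 and 2 without iTBS at 24 h replicate 1. In series C, Cldn11 and Ugt8 passed, with 1.07 ± 0.27 and 1.25 ± 0.19, where 0.577% of probes were higher (206 probes higher and 93 lower, or 259 and 193 with scaling by the 75th percentile). Cldn11 lost its call without any 1 of 13 arrays, and with the slide in the model 0 of 8 passed. In series A, Mbp and Cldn11 passed, with 2.80 and 2.23, where 3.57% of probes were higher, and both values rest on 1 array at 24 h. The Mbp value was 1.86 without sham at 0 h replicate 2. In series D, 1 of 8 passed as higher, where 11% of probes were: Myrf at 0.72 ± 0.24, which was 0.14 and did not pass without iTBS at 0 h replicate 4, the lowest Myrf array of that series at 2.04.

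The remaining calls within a series held less firmly. In series A, Mbp was at 2.40 and 2.44 at 2 h, at 1.83 on the single array at 8 h and at 4.62 to 4.92 at 48 h, beside 2.01 (sham), 4.43, 4.69 and 4.73 at 0 h. At 2 h Mbp (−1.30 ± 0.39) and Ugt8 (−0.83 ± 0.22) were lower, where 4.53% of probes were, and the Mbp value ran from −2.27 to −0.78 with 1 array left out, losing its call in 7 of 53 cases. At 8 h Mbp (−1.86 ± 0.51) and Myrf (−1.91 ± 0.36) were lower, where 4.21% of probes were (787 probes higher and 1501 lower, or 1229 and 1387 with scaling by the 75th percentile). With the slide in the model none of these 4 calls passed, and the Myrf value was −0.95. At 48 h, 5 of 8 genes were above 0 h in series A, where 11.9% of probes were. Cldn11 (1.69 ± 0.29) and Ugt8 (0.98 ± 0.20) passed under each alternative run, leaving out single arrays included, although Cldn11 was 1.10 without the array that lowered it most. Mbp (1.02 ± 0.35) was 0.06 without sham at 0 h replicate 2 (limma adjusted p 0.909), and Mag and Myrf also lost their calls without that array. Mobp was below 0 h (−0.69 ± 0.24), where 9.22% of probes were, but did not pass with another scaling or background correction (−0.29 with normexp, limma adjusted p 0.119) or without any 1 of 5 arrays. In series C at 48 h, Mbp (−1.34 ± 0.33) and Mag (−0.98 ± 0.17) were below 0 h, where 2.56% of probes were. With the slide in the model they were −0.69 and −1.17 and did not pass (limma adjusted p 1.00 and 0.720). At 48 h, Myrf in series B was above 0 h (0.71 ± 0.27, where 15.1% of probes were), and did not pass with another scaling or background correction (0.47 with normexp), with the slide or without any 1 of 4 arrays. Mog in series D was below 0 h (−0.80 ± 0.23, where 10.7% of probes were), and was −0.36 with the slide in the model (limma adjusted p 0.996).

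The genes most like the myelin genes were found by the Pearson r of their level with the mean of the 8 genes over the 55 arrays, among 13880 other genes. The 10 highest included Cdkn1c (0.967), Nkx6-2 (0.964), Cpm (0.963), Bmp4 (0.963), Apod (0.959), Pnlip (0.955), Tnr (0.955), Tns3 (0.947) and Ccnjl (0.942). Arrays share series, slide and scaling, so these values describe the data without a test. Nkx6-2, Apod and Tnr belong to the lists above, Cdkn1c encodes an inhibitor of the cell cycle, and Bmp4 a secreted signal of the bone morphogenetic protein family. Cdkn1c had means of 8.89, 7.29, 5.39 and 3.54 in C, B, A and D, and Bmp4 of 5.30, 3.56, 1.40 and 0.15. When the mean of each series had been removed, Pnlip (0.730) and Bmp4 (0.682) stayed among the 10 highest, and Cks2 (0.718) and Knstrn (0.697) joined them.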

How the data were processed

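Total RNA of 56 samples of rat hippocampal cultures was hybridised by the authors to 1-colour Agilent arrays and read with Feature Extraction 12.0.3.1. The deposited scanner files hold processed, median and background signals as intensity, of which the processed signal is already corrected for background. The deposited value table of the authors holds a z score per array, which log2 processed signals scaled within each array match to within 0.005. An array of 1 Hz at 2 h (replicate 2) with a failed grid was left out. Spots of a probe were averaged on the log2 scale, and z scores were multiplied by the median array SD of 4.06. Probes had to be well above background on at least 3 arrays: of 45598 probes, 420 lacked a value and 9484 did not pass, which left 35694. Symbols came from RefSeq accessions (GRCr8). The files name build rn4, so none of their coordinates were used.

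Groups followed the labels. Arms were compared with limma 3.58.1 in R 4.3.3 on group means, and series and times with the series as a term, with Benjamini-Hochberg adjustment over all probes and a threshold of 0.05. The comparisons of 1 Hz, iTBS and the untreated control with sham share the sham arrays at each time. The named genes were the 8 members, fixed lists of myelin, lineage and cell type genes, and the 10 genes most correlated with the members. Members and lists were chosen with earlier results of these data known. Fits with the series at each time as a block, and times within a series, were added after seeing the data. The scripts were tested on simulated data. Alternatives covered scaling, background correction, the filter, probes, slide, replicate number and leaving out arrays. Some genes of the fixed lists are counted but not reported by name here.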

Additional observations from a re-analysis of the deposited data

Results flagged for a closer look

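Among 64 pairs of a gene and a group of 4 arrays, 2 had a lowest array far from the rest by Dixon's ratio of its gap to the range of the group. The usual rate of about 1 such pair in 20 is for 4 arrays of like kind. It does not apply here, because each of these groups mixes arrays of different series. Mobp at 48 h after 1 Hz was at −0.95 in replicate 1 and next at −0.22 (ratio 0.8908). Ugt8 at 48 h after 1 Hz was at 0.88 in replicate 4, the array of series D, and next at 4.31 (ratio 0.8731). That value lay within the Ugt8 range of series D, 0.74 to 1.68.

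Time courses differed between the series for 6 genes, where 41.9% of probes passed. The test was the moderated F test of limma on the interaction of series and time. The adjusted p was 1.312e-06 for Mbp, 0.02225 for Mog, 7.845e-07 for Mag, 1.334e-07 for Cldn11, 5.534e-06 for Ugt8 and 8.084e-06 for Myrf. With the slide in the model Mog did not pass.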

How the results depend on the processing

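Counts are of the 8 genes called by limma. In the comparisons of arms and of sham over time the count was 0 under all alternatives run. With the slide in the model the count went from 7 to 0 for A against B, from 8 to 5 for B against C, from 4 to 1 for 24 against 0 h in series B, from 2 to 0 in series C, from 1 to 0 for 24 against 0 h, from 0 to 1 for 48 against 0 h, from 1 to 2 over all times and from 31 to 14 over the 20 comparisons of times within a series. With all 56 arrays, where Myrf lacked a value and 7 genes were tested, it was 2 in place of 4 for A against D, 5 in place of 8 for B against D, 0 in place of 1 at 24 h and 0 in place of 1 over all times. Without the series in the model it was 0 at 24 h and 0 over all times. The mean of all probes of a gene gave 2 at 24 h and turned Mobp in B against D from 0.44 to −0.0335 (adjusted p 0.813). Scaling by the 75th percentile gave 1 for 24 against 0 h in series C. Of the 10 most correlated genes, 4 were shared with Spearman's rho and 4 with the series means removed. The cause of these changes was not tested. Shares of all probes called are not given for the fits with the slide.

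Leaving out 1 array at a time gave counts of 6 to 7 for A against B, 7 to 7 for A against C, 4 to 5 for A against D, 8 to 8 for B against C, 7 to 8 for B against D, 6 to 7 for C against D and 8 to 8 over all series. For times it gave 0 to 1 at 24 h, 0 to 1 at 48 h, 0 to 2 over all times, 5 to 7 for the time courses between series and 27 to 37 within series. Within a series it gave 2 to 2 (A), 2 to 4 (B) and 1 to 3 (C) for 24 against 0 h, and 1 to 4 (B) and 4 to 6 (C) for 48 against 24 h.

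With the replicate number as a block the count was 1 in place of 4 for A against D and moved no other count by over 1.5 times (6 in place of 7 for C against D). Deviations of same-numbered samples correlated with r from −0.462 to 0.780 (median 0.178, 215 of 373 pairs above 0.1), and of samples with different numbers with a median of −0.104 (282 of 1042 pairs above 0.1). Same-numbered samples thus correlated more in the median, but not in every pair, so the numbers were not taken to pair the samples. Normexp was run on spot medians, the spot signal the scanner files used here hold, in place of the planned spot means. Depth is set by the number of arrays: 1 array stood for series A at 8 h and at 24 h.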
